A study of Mus musculus with 4 samples.

Results

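The genes described here are 34 genes of glycolysis and of the response to low oxygen, out of 22722 genes counted in MPC11, an immunoglobulin-secreting mouse plasmacytoma line. They were taken by symbol. They comprise 22 glycolysis genes (transporters for glucose and lactate, the enzymes between them, and Bpgm) and 12 hypoxia genes (the oxygen-sensing genes Hif1a, Egln1 and Egln3 and known targets of the hypoxia-inducible factor). The study compared 2 libraries from cells carrying a lentiviral pLKO.1 hairpin against Ell2 (Ell2-KD), a gene for an elongation factor of RNA polymerase II, with 2 libraries from cells carrying a hairpin against GFP (shGFP), a control for the virus and the hairpin machinery. All 4 cultures were exposed to virus and polybrene for 18 h, selected in puromycin for 72 h and expanded for 72 h in RPMI medium with serum, and the labels name no low-oxygen treatment. The model is 1 cell line and 1 hairpin against Ell2. The labels speak of biological replicates but not of separate transductions, so p-values measure only the spread between these samples.

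Glycolysis turns glucose into pyruvate in a chain of cytosolic enzymes, and cells that send much of the pyruvate on to lactate depend on lactate dehydrogenase and a lactate exporter. The hypoxia-inducible factor is a dimer of an oxygen-sensitive alpha subunit and a stable partner. Prolyl hydroxylases of the Egln family mark the alpha subunit for degradation when oxygen is plentiful. When it is scarce the factor binds a short response element and raises transcription of many glycolytic genes, of Vegfa, and of genes that restrain mitochondria. Plasma cells, which make large amounts of secreted glycoprotein, take up glucose avidly, in part to supply sugars for antibody glycosylation.

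Among the members' promoters, 3 are shown because they hold several copies of the core letters of that element near the gene's start. Pgk1 had a log2 change of 0.01 between the groups, Ldha was low in 1 knockdown library and Bnip3 was low in both. The sequences are from RefSeq on GRCm38.p6, read 5′ to 3′ on the gene's strand, and capitals mark ACGTG or GCGTG on either strand (CACGT and CACGC are their reverse complements, and CACGTG holds ACGTG on both strands).
Pgk1: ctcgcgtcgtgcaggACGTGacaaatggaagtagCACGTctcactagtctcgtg
Ldha: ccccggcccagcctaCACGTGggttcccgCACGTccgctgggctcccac
Bnip3: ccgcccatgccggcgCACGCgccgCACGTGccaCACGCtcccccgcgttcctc
The Pgk1 stretch is chrX:106186935-106186988 on the plus strand, 165 to 112 bases before the annotated start. The Ldha stretch is chr7:46845741-46845789 on the plus strand, 63 to 15 bases before the start. The Bnip3 stretch is chr7:138909586-138909638 on the minus strand, 132 to 80 bases before the start. Promoter windows of 300 bases (250 before to 50 after the start) were matched for 32 of the 34 members, and 24 of these (75%) hold ACGTG or GCGTG on either strand. Of all 32851 promoters of that length, 43.77% hold one of them, so the letters alone are common, and a match is a description of the sequence, not of binding. The 8 matched members without the letters in the window were Hk1, Gpi1, Aldoa, Tpi1, Eno2, Pkm2, Bpgm and Vegfa.

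Library totals ranged from 3496471 counts (Ell2-KD replicate 2) to 13914488 (Ell2-KD replicate 1), with both shGFP libraries between them. Ell2 itself was lower in both knockdown libraries, at 87.8 and 115 CPM against 938 and 996 CPM in shGFP (log2 change -3.25 ± 0.23 SE, n = 2 per group, edgeR adjusted p = 0.00032). CPM are counts scaled to the library total, TMM-normalised unless stated, and a pair of values is replicate 1 and then replicate 2. Of 11027 genes with enough counts to test, 5 passed an edgeR adjusted p of 0.05, which is 0.0453%. The plasma cell markers fixed for the check (Sdc1, Xbp1, Prdm1, Irf4, Igj, Tnfrsf17 and Pou2af1) summed to 12737 to 20282 CPM of all counts in the 4 libraries. T and NK cell markers summed to 5.46 to 13.2, myeloid markers to 1.56 to 4.46 and erythroid markers to 0.120 to 0.786, with Hbb-b1 at 0 in every library. Fibroblast and epithelial markers summed to 451 to 627, nearly all of it Epcam. All 7 plasma cell markers had a negative log2 change in Ell2-KD, against 50.1% of all genes tested. Their median was -0.39 and their lowest value -4.56. For 6 of the 7 both knockdown libraries lay below both controls, against 18.5% of all genes tested. At an unadjusted edgeR p under 0.05, 3 of the 7 were lower, against 3.26% of all genes tested. The smallest edgeR adjusted p among these markers was 0.183. Their part in the values below was not tested, and in bulk RNA fewer cells of a kind cannot be told apart from less RNA per cell.

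No glycolysis or hypoxia gene changed past the threshold. Together the 22 glycolysis genes took 0.390% and 0.407% of all counts in shGFP, and 0.409% and 0.308% in Ell2-KD. The 12 hypoxia genes took 0.0819% and 0.0841% in shGFP, and 0.0787% and 0.0663% in Ell2-KD. Ell2-KD replicate 2 was thus the lowest library for both sums, whereas Ell2-KD replicate 1 had the highest glycolysis sum. Ldha and Pgk1, the markers given for the group, were counted in every library.

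Of the 22 glycolysis genes 18 could be tested, and of the 12 hypoxia genes all 12 could, so 30 members entered the fit. By edgeR and by DESeq2, 0 of the 30 passed the adjusted threshold, and the smallest edgeR adjusted p among them was 0.748, for Tpi1. At an unadjusted edgeR p under 0.05, 3 glycolysis genes were lower (Tpi1, Pfkp and Aldoc), 0 were higher, and 0 hypoxia genes passed in either direction. Of all genes tested, 3.26% were lower at that level and 2.57% higher. Both Ell2-KD libraries lay below both shGFP libraries for 6 of 18 glycolysis genes and 5 of 12 hypoxia genes, and above them for 1 and 0. Over all genes tested, 18.5% lay below in this way and 17.4% above. The median log2 change was -0.22 over the 18 glycolysis genes, of which 14 were negative, and -0.16 over the 12 hypoxia genes, of which 7 were negative. Over all genes the median was -0.0015, with 50.1% negative.

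**Figure D1:**
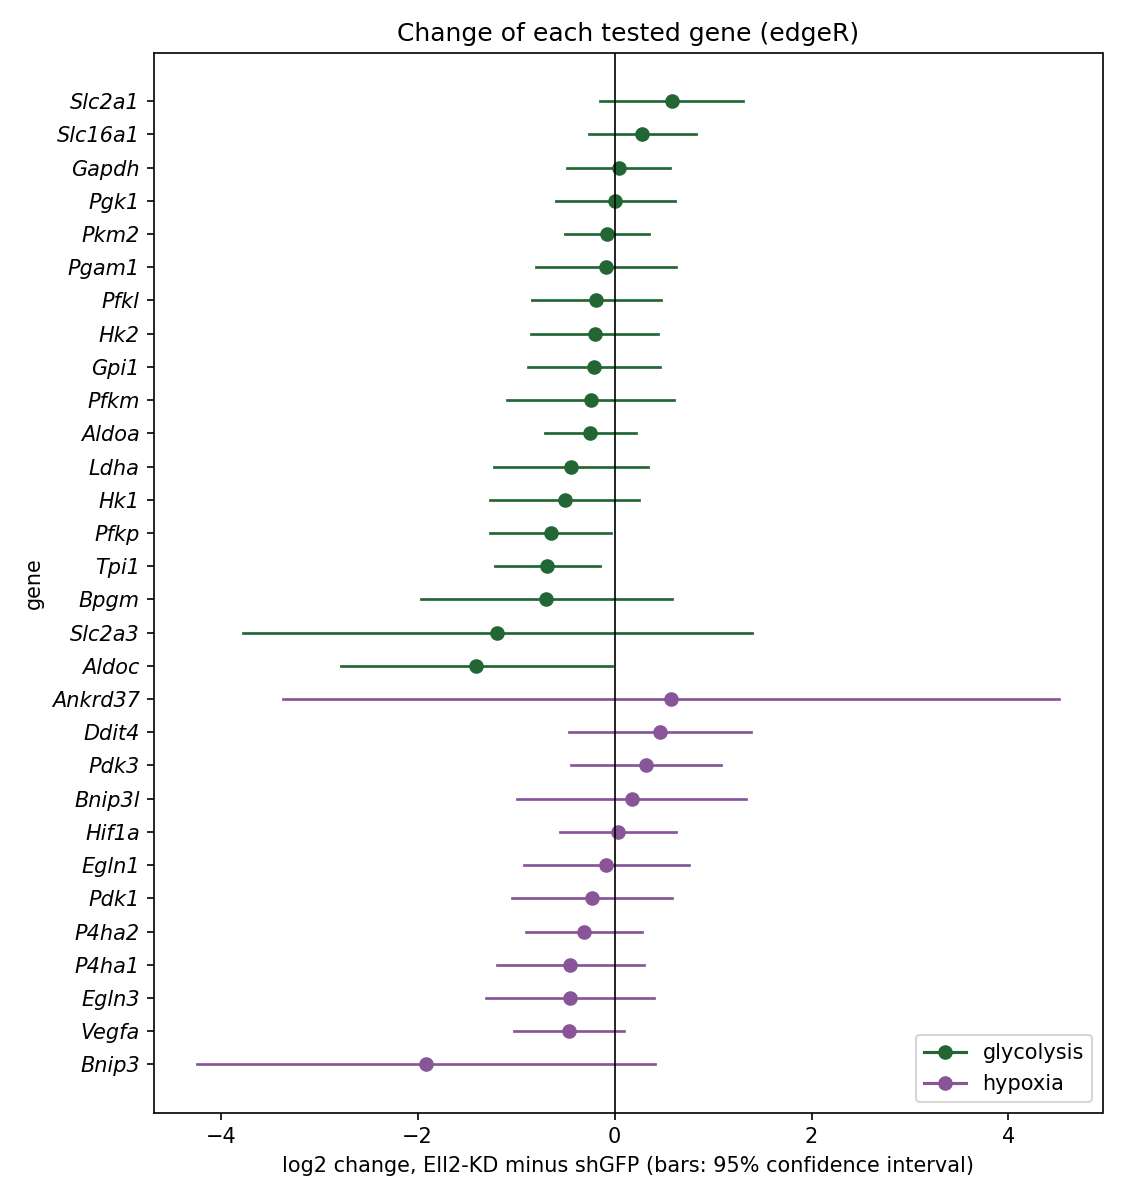
Log2 change (Ell2-KD minus shGFP, horizontal axis) of each tested glycolysis gene (green) and hypoxia gene (purple), with points for the edgeR estimate and bars for its 95% confidence interval over 2 libraries per group. Only the intervals of Tpi1, Pfkp and Aldoc lie wholly below 0, before adjustment, and those of Bnip3, Ankrd37 and Slc2a3, the genes with the fewest counts, are the widest.

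The negative values of the glycolysis genes did not come equally from both knockdown libraries. Ell2-KD replicate 2, the shallowest library, was the lowest of the 4 for 13 of 18 glycolysis genes and 6 of 12 hypoxia genes, against 29.7% of all genes tested. The glycolysis median was -0.13 for Ell2-KD replicate 1 and -0.32 for Ell2-KD replicate 2, each set against the mean of shGFP on a log2 scale (prior count 2). The hypoxia medians were -0.08 and -0.27 in the same order, while those of all genes tested were -0.00066 and 0.0058. Left out of the edgeR fit, Ell2-KD replicate 2 gave a glycolysis median of -0.13 and a hypoxia median of -0.09. The corresponding medians without Ell2-KD replicate 1 were -0.33 and -0.37. Whether depth had a part in this was not tested.

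**Figure D2:**
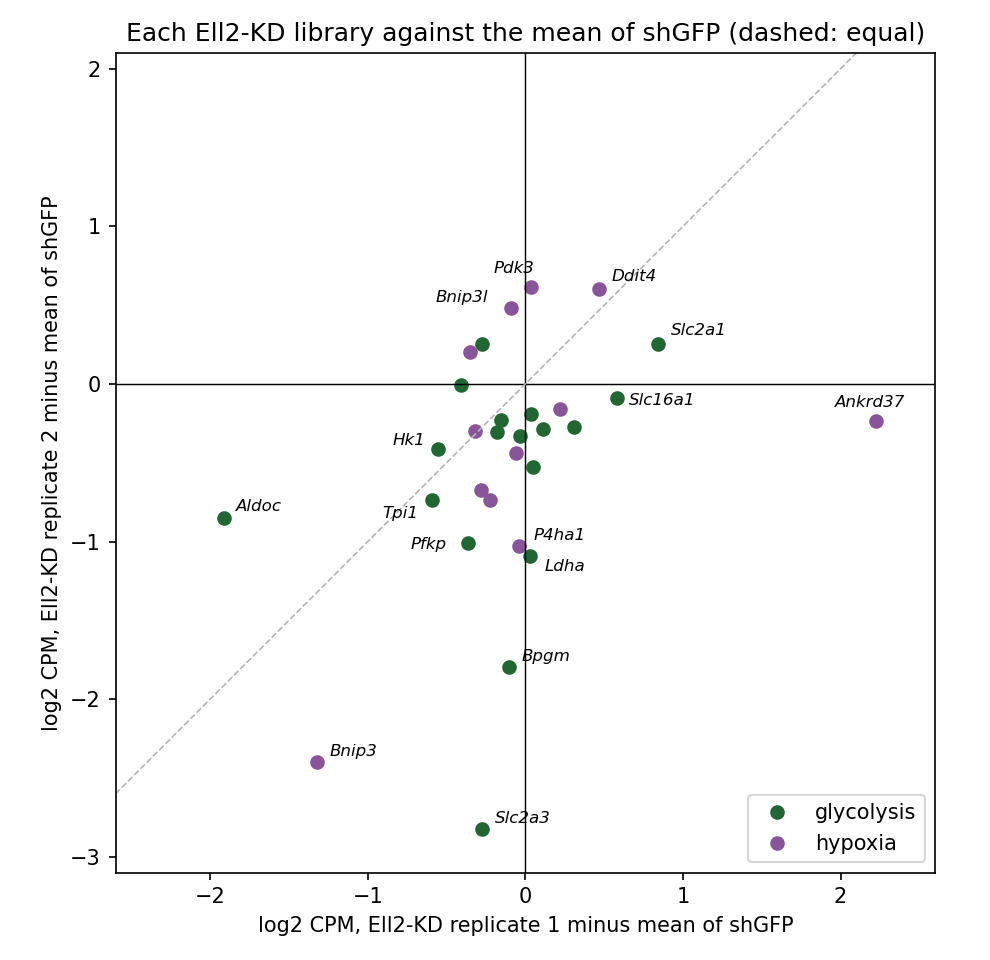
Log2 CPM of Ell2-KD replicate 1 (horizontal axis) and Ell2-KD replicate 2 (vertical axis), each minus the mean of the 2 shGFP libraries, for every tested glycolysis gene (green) and hypoxia gene (purple), with a dashed line where both are equal. Aldoc, Bnip3, Tpi1 and Pfkp lie low on both axes, Slc2a1 and Ddit4 lie high on both, and Ldha, P4ha1 and Bpgm lie near 0 on the horizontal axis and low on the vertical.

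Levels of different genes were compared as CPM per kb of exon, averaged over the 4 libraries. On this scale Pkm2 and Gapdh led. Pkm2, pyruvate kinase, which makes pyruvate, stood at 380 CPM per kb, and Gapdh, the dehydrogenase that yields NADH, at 335. Aldoa, the aldolase that splits the hexose, followed at 195, Tpi1 at 181, Ldha at 120, the lactate transporter Slc16a1 at 98.3 and Pgk1 at 73.6. The enzymes that commit glucose to the pathway were lower, with 15.3 for Hk2, 10.7 for Hk1 and 14.8 to 36.3 for the 3 phosphofructokinases. Gpi1, of an early step, stood at 29.9, and Pgam1, of a later step, at 39.7. Gapdh has 71 near-identical genes elsewhere in the genome (at least 95% identity over 50% or more of its length), Ldha and Pgk1 have 2 each and Pkm2 has 1. How reads matching several copies were counted is not given in the sources used here, so these 4 levels are uncertain.

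**Figure D3:**
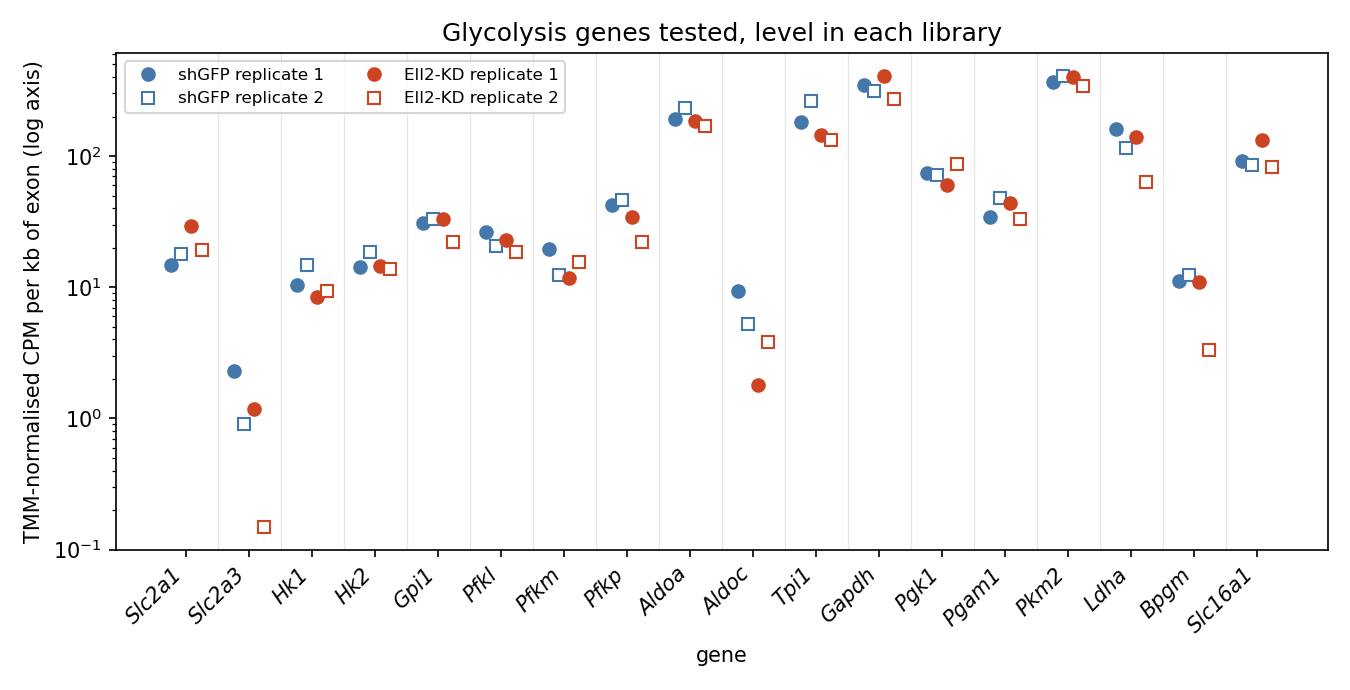
Level of each tested glycolysis gene in CPM per kb of exon (vertical log axis), with circles for replicate 1 and squares for replicate 2 of shGFP (blue) and Ell2-KD (red). Genes stand in pathway order from uptake to export, except Bpgm, which is placed after Ldha. Pkm2, Gapdh, Aldoa and Tpi1 are the highest in these libraries, Slc2a3 is the lowest, and the open red square of Ell2-KD replicate 2 is the lowest point of many genes.

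Of the 2 glucose transporter genes among the members, most counts were of Slc2a1 (GLUT1, the widely expressed transporter). Its level was 47.8 and 58.5 CPM in shGFP and 95.1 and 63.2 CPM in Ell2-KD. Both knockdown libraries were above both controls, and it was the 1 glycolysis gene of which this held. The log2 change was 0.58 ± 0.33 (SE, edgeR adjusted p = 0.905), and the gap between the knockdown libraries was larger than that between Ell2-KD replicate 2 and the controls. Slc2a3 (GLUT3, a high-affinity transporter) had 76 and 18 counts in shGFP and 66 and 2 in Ell2-KD (log2 change -1.19 ± 1.17 SE, edgeR adjusted p = 0.971). The Slc2a3 change was -3.40 without Ell2-KD replicate 1, -0.44 without Ell2-KD replicate 2 and -0.37 without shGFP replicate 1, and that of Slc2a1 ran from 0.25 without Ell2-KD replicate 1 to 0.85 without Ell2-KD replicate 2. By length-scaled counts Slc2a1 made up 86.5% and 95.2% of the pair in shGFP and 96.1% and 99.2% in Ell2-KD. The share was higher in both knockdown libraries, and with 2 against 2 libraries no exact test of shares can go below a p of 0.333.

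Hexokinases phosphorylate glucose on entry. Hk1 was at 50.7 and 71.2 CPM in shGFP and 40.9 and 45.1 CPM in Ell2-KD, with both knockdown libraries below both controls (log2 change -0.50 ± 0.34 SE, edgeR adjusted p = 0.919). Hk2, the inducible form, was at 79.8 and 103.8 CPM in shGFP and 81.9 and 77.6 CPM in Ell2-KD, and the groups overlapped. Hk2 therefore held 57.6% and 55.7% of the pair in shGFP and 63.4% and 59.8% in Ell2-KD. Gpi1, the isomerase that converts glucose phosphate to fructose phosphate, was at 89.3 and 95.6 CPM in shGFP and 95.5 and 64.1 CPM in Ell2-KD, and the groups overlapped.

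Phosphofructokinase carries out the committed step and is built from liver, muscle and platelet subunits. The platelet form Pfkp was the most abundant of the 3 per length. It was at 182 and 199 CPM in shGFP and 148 and 94.6 CPM in Ell2-KD, with no overlap. Its log2 change of -0.65 ± 0.28 (SE, 95% interval -1.26 to -0.03) missed the threshold (edgeR adjusted p = 0.830). It was -0.35 without Ell2-KD replicate 2 and -1.01 without Ell2-KD replicate 1. Its exons overlap those of Pitrm1 on the opposite strand, and without a known strand setting reads of the 2 genes cannot be told apart. The liver form Pfkl was at 98.3 and 77.2 CPM in shGFP and 85.2 and 69.1 CPM in Ell2-KD, which overlap. The muscle form Pfkm was at 59.1 and 36.9 CPM in shGFP and 35.2 and 46.5 CPM in Ell2-KD, and the groups also overlapped. Exons of Pfkm overlap those of Senp1 on the opposite strand. Pfkp supplied 47.9% and 58.4% of the family's length-scaled counts in shGFP and 49.9% and 39.3% in Ell2-KD, with no separation of the groups.

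Aldolase and triose phosphate isomerase act in the middle of the pathway, and Aldoc and Tpi1 were the other genes with an unadjusted edgeR p under 0.05. The main aldolase Aldoa was at 488 and 596 CPM in shGFP and 477 and 436 CPM in Ell2-KD. Both knockdown libraries were lower, but Ell2-KD replicate 1 by very little (log2 change -0.25 ± 0.21 SE, edgeR adjusted p = 0.959). Aldoc, the brain-type aldolase and a minor form here, was at 27.8 and 15.5 CPM in shGFP and 5.32 and 11.4 CPM in Ell2-KD. Its log2 change of -1.40 ± 0.62 (SE, 95% interval -2.78 to -0.03) was the most negative of the tested glycolysis genes, with an edgeR adjusted p of 0.837. The Aldoc change was -0.90 when shGFP replicate 1 was left out and -0.93 without Ell2-KD replicate 1. Tpi1, which interconverts the triose phosphates, was at 321 and 467 CPM in shGFP (394 ± 103, SD, n = 2) and 257 and 233 CPM in Ell2-KD (245 ± 17.3, SD, n = 2). The groups did not overlap, but the gap between the 2 controls was larger than that between the lower control and either knockdown library. The log2 change was -0.68 ± 0.24 (SE, 95% interval -1.22 to -0.15, edgeR adjusted p = 0.748), and exons of Tpi1 overlap those of Spsb2 on the opposite strand. Without shGFP replicate 2 the Tpi1 change was -0.39.

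Of the pay-off steps, which make ATP and NADH, the members Gapdh, Pgk1, Pkm2 and Pgam1 overlapped between the groups. Their log2 changes ran from -0.09 to 0.04, with intervals too wide to show that they were unchanged. Gapdh was at 523 and 465 CPM in shGFP and 610 and 407 CPM in Ell2-KD, so the knockdown libraries lay on either side of the controls (log2 change 0.04 ± 0.24 SE, 95% interval -0.48 to 0.57, edgeR adjusted p = 0.999). Pgk1, the first ATP-yielding kinase, was at 136 and 132 CPM in shGFP and 110 and 159 CPM in Ell2-KD. Here too the 2 controls were nearly equal and the knockdown libraries flanked them (log2 change 0.01 ± 0.27 SE, edgeR adjusted p = 0.999). Pkm2 was at 960 and 1068 CPM in shGFP and 1037 and 888 CPM in Ell2-KD, and its log2 change of -0.07 ± 0.19 (SE) had the smallest error of the members, with a 95% interval of -0.50 to 0.35. A count per gene symbol does not tell the M1 and M2 isoforms of pyruvate kinase apart. Pgam1, a phosphoglycerate mutase, was at 60.6 and 85.1 CPM in shGFP and 77.7 and 58.8 CPM in Ell2-KD, with overlap. Its relative Pgam2, which is not a member, was at 88.4 and 69.8 CPM in shGFP and 98.9 and 109 CPM in Ell2-KD. Both knockdown libraries lay above both controls (log2 change 0.39 ± 0.29 SE, edgeR adjusted p = 0.950), as for 17.4% of all genes tested. Per kb of exon, Pgam2 averaged 109 CPM and Pgam1 39.7 CPM. Bpgm, which makes the bisphosphoglycerate that loosens oxygen from haemoglobin, was at 24.8 and 27.4 CPM in shGFP and 24.3 and 7.32 CPM in Ell2-KD, so its log2 change of -0.69 ± 0.58 (SE, edgeR adjusted p = 0.959) came almost wholly from Ell2-KD replicate 2.

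Enolase, the step between Pgam1 and pyruvate kinase, was not counted where it would be looked for. The row of Eno1, the ubiquitous enolase, held 4 and 5 counts in shGFP and 46 and 2 in Ell2-KD, too few to test. That of Eno2, the neuronal form, held 3 and 9 in shGFP and 7 and 4 in Ell2-KD. The files also hold Gm5506, now named Eno1b in RefSeq, whose coding sequence of 1305 bp differs from that of Eno1 at 8 positions (99.39% identity) and is identical to it over a run of 725 bp. Gm5506 had 384 and 259 counts in shGFP and 602 and 167 in Ell2-KD (log2 change -0.09 ± 0.34 SE, edgeR adjusted p = 0.999). Reads from the identical stretches cannot be assigned to either gene, so the Eno1 row by itself is not a measure of that enzyme's RNA. Eno3, the muscle form, which is not one of the 34, was at 145 and 129 CPM in shGFP and 110 and 86.1 CPM in Ell2-KD. Both knockdown libraries lay below both controls (log2 change -0.49 ± 0.27 SE, edgeR adjusted p = 0.896), as for 18.5% of all genes tested. By length-scaled counts Eno3 supplied 67.3% to 79.0% of the 4 enolase rows and Gm5506 20.7% to 31.9%. How reads matching both Eno1 and Gm5506 were counted is not given. Both rows may therefore be too low, and these shares do not show which enolase RNA was the most abundant.

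At the end of the pathway 1 gene of each pair held nearly all counts. Ldha, the lactate dehydrogenase subunit that favours lactate, was at 304 and 219 CPM in shGFP (262 ± 60.3, SD, n = 2) and 263 and 121 CPM in Ell2-KD (192 ± 100.6, SD, n = 2). The groups overlapped, since Ell2-KD replicate 1 lay between the controls, and the log2 change was -0.44 ± 0.35 (SE, 95% interval -1.23 to 0.34, edgeR adjusted p = 0.958). Without Ell2-KD replicate 2 the Ldha change was 0.02, and without Ell2-KD replicate 1 it was -1.11. Ldhb, the heart-type subunit, had 0 and 1 counts in shGFP and 0 and 1 in Ell2-KD, so Ldha made up at least 99.6% of the pair in each library. Slc16a1 (MCT1), which carries lactate and pyruvate, was at 404 and 382 CPM in shGFP and 586 and 369 CPM in Ell2-KD, with overlap (log2 change 0.28 ± 0.25 SE, edgeR adjusted p = 0.959). Slc16a3 (MCT4), the transporter typical of glycolytic and hypoxic cells, had 1 and 0 counts in shGFP and 10 and 0 in Ell2-KD.

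Of the 12 hypoxia genes, 7 overlapped between the groups, Hif1a and Egln1 among them. In the other 5, Egln3 among them, both knockdown libraries lay below both controls, against 18.5% of all genes tested. Hif1a, the alpha subunit, was at 143 and 120 CPM in shGFP and 152 and 117 CPM in Ell2-KD, and its log2 change was 0.04 ± 0.27 (SE, 95% interval -0.55 to 0.63, edgeR adjusted p = 0.999). Because the subunit is controlled mainly by its stability, its RNA does not measure the factor's activity. Egln1, the main oxygen sensor, was at 38.9 and 59.3 CPM in shGFP and 37.6 and 55.3 CPM in Ell2-KD, and the 2 libraries within each group differed more than the groups. Egln3, a sensor that is itself induced by hypoxia, was at 43.6 and 41.5 CPM in shGFP and 36.4 and 25.5 CPM in Ell2-KD, with no overlap (log2 change -0.45 ± 0.39 SE, edgeR adjusted p = 0.959).

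**Figure D4:**
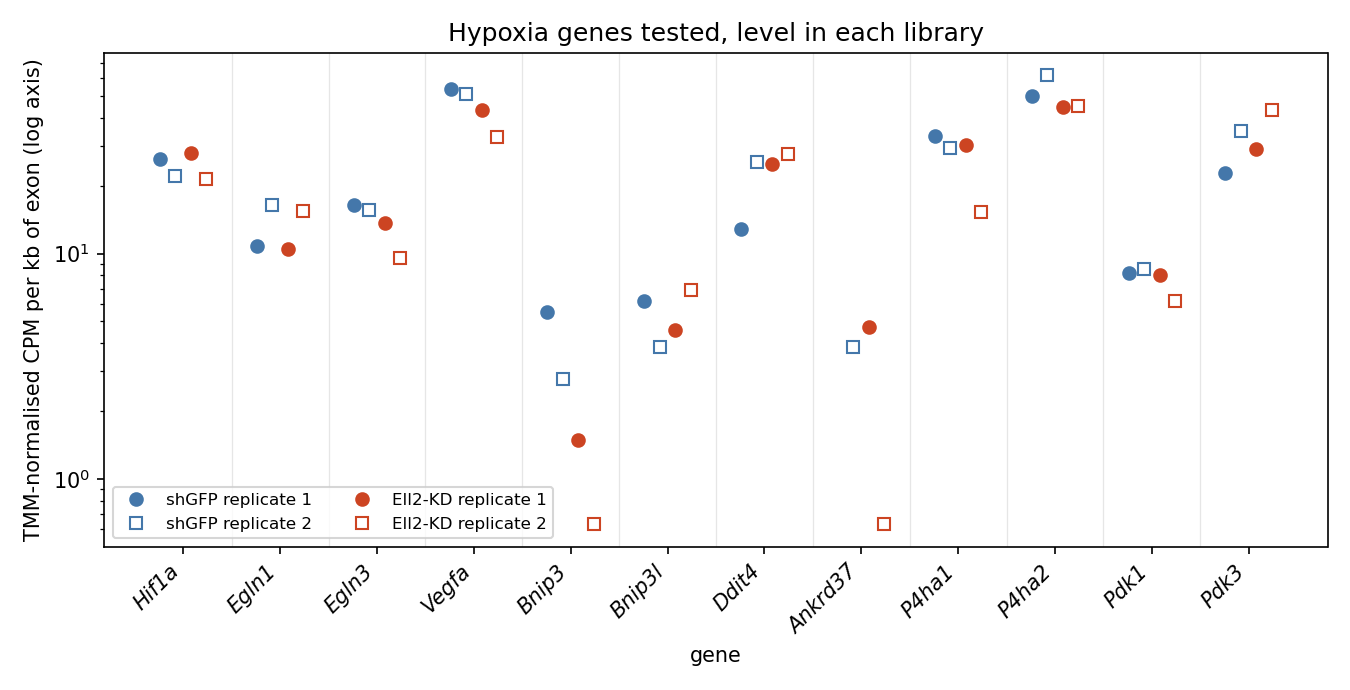
Level of each tested hypoxia gene in CPM per kb of exon (vertical log axis), with circles for replicate 1 and squares for replicate 2 of shGFP (blue) and Ell2-KD (red). Both red points lie below both blue points for Egln3, Vegfa, Bnip3, P4ha2 and Pdk1, and Ankrd37 had 0 counts in shGFP replicate 1, which a log axis cannot show.

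Vegfa, the secreted growth factor for blood vessels, stood at 45.2 CPM per kb averaged over the libraries, after P4ha2 at 50.4 the highest of the hypoxia genes. It was at 190 and 179 CPM in shGFP (185 ± 7.56, SD, n = 2) and 152 and 116 CPM in Ell2-KD (134 ± 25.5, SD, n = 2). The controls lay close together and both knockdown libraries below them (log2 change -0.46 ± 0.25 SE, 95% interval -1.02 to 0.10, edgeR adjusted p = 0.886), the smallest adjusted p of the hypoxia genes. Without Ell2-KD replicate 2 the Vegfa change was -0.27. Bnip3, a mitochondrial receptor for mitophagy, had 86 and 26 counts in shGFP and 39 and 4 in Ell2-KD, or 10.3 and 5.16 CPM against 2.77 and 1.17 CPM. Its log2 change of -1.91 ± 1.05 (SE, 95% interval -4.24 to 0.41, edgeR adjusted p = 0.889) was the most negative of the 30 and had one of the largest errors. Its relative Bnip3l (NIX) was at 20.3 and 12.7 CPM in shGFP and 15.04 and 22.5 CPM in Ell2-KD, with overlap. Bnip3 accordingly held 47.2% and 41.8% of the length-scaled counts of the pair in shGFP and 24.5% and 8.41% in Ell2-KD, without overlap.

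Collagen prolyl hydroxylases modify procollagen in the endoplasmic reticulum. P4ha1 was at 137 and 121 CPM in shGFP and 125 and 62.9 CPM in Ell2-KD, and overlapped between the groups. P4ha2 was at 117 and 144 CPM in shGFP and 104 and 106 CPM in Ell2-KD, and did not overlap (log2 change -0.31 ± 0.27 SE, edgeR adjusted p = 0.959). P4ha2 made up 60.1% and 67.7% of the pair in shGFP and 59.5% and 74.8% in Ell2-KD. Ddit4 (REDD1), an inhibitor of mTORC1 induced by stress and hypoxia, was at 22.5 and 44.6 CPM in shGFP and 44.0 and 48.3 CPM in Ell2-KD. For this gene 1 control stood apart from the 3 other libraries (log2 change 0.46 ± 0.42 SE, edgeR adjusted p = 0.967). Ankrd37, a small ankyrin-repeat gene, had 0 and 18 counts in shGFP and 62 and 2 in Ell2-KD, so the replicates of each group disagreed by more than the groups did, and its exons overlap those of Lrp2bp and Ufsp2.

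Pyruvate dehydrogenase kinases switch off entry of pyruvate into the citrate cycle. Pdk1, the hypoxia-induced kinase, was at 42.3 and 44.3 CPM in shGFP and 41.5 and 31.9 CPM in Ell2-KD, both knockdown values being lower, that of replicate 1 by under 1 CPM. Pdk3 was at 48.2 and 74.2 CPM in shGFP and 61.4 and 91.6 CPM in Ell2-KD, with overlap (log2 change 0.32 ± 0.35 SE, edgeR adjusted p = 0.979). Pdk3 held the larger share of the length-scaled counts of Pdk1 and Pdk3 in all 4 libraries, at 73.6% and 80.4% in shGFP and 78.4% and 87.6% in Ell2-KD. Of the minor kinase Pdk2, which is not a member, 2 and 2 counts were found in shGFP and 25 and 14 in Ell2-KD (edgeR adjusted p = 0.871).

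Genes around the pathway were read from lists of other genes. All 27 genes of pyruvate entry and the citrate cycle were tested, with a median log2 change of 0.13, and 0 passed the edgeR adjusted threshold. Of these, 15 changes were positive and 12 negative, against 50.1% negative over all genes tested. Both knockdown libraries lay above both controls for 9 of the 27 (33.3%) and below them for 4 (14.8%). Over all genes tested these shares were 17.4% and 18.5%. The smallest p-values of the list were those of Pdha1 and Idh3g. Pdha1 is the catalytic subunit of pyruvate dehydrogenase that the Pdk kinases phosphorylate, and Idh3g is a subunit of isocitrate dehydrogenase. Pdha1 was at 206 and 203 CPM in shGFP and 346 and 465 CPM in Ell2-KD (log2 change 0.99 ± 0.23 SE, edgeR adjusted p = 0.450, and 0.0498 by DESeq2). The 2 controls were nearly equal, and both knockdown libraries were well above them, and exons of Pdha1 overlap those of Map3k15. Without Ell2-KD replicate 1 the Pdha1 change was 1.19 (edgeR adjusted p = 0.0098), and without Ell2-KD replicate 2 it was 0.77 (edgeR adjusted p = 0.332). Leaving out shGFP replicate 1 or 2 gave Pdha1 changes of 1.01 and 0.97 (edgeR adjusted p = 0.701 and 0.549). Idh3g was at 116 and 131 CPM in shGFP and 242 and 210 CPM in Ell2-KD (log2 change 0.87 ± 0.24 SE, edgeR adjusted p = 0.544). The difference between this list and the glycolysis genes was not tested.

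Of 23 regulators and side branches of glycolysis 19 were tested, with a median of -0.14. Of these, 4 changes were positive and 15 negative, against 50.1% negative over all genes tested. Their smallest p-values were those of Pgm1, a phosphoglucomutase (45.6 and 31.4 CPM in shGFP, 14.9 and 18.4 CPM in Ell2-KD, edgeR adjusted p = 0.754), and Rpe, of the pentose phosphate pathway (126 and 115 CPM against 75.8 and 98.7 CPM, edgeR adjusted p = 0.906). Of 15 other isozymes, which are not members, only 3 had enough counts to test: Eno3, Pgam2 and Pdk2. Of 14 partners and degradation factors of the hypoxia-inducible factor 12 were tested, with 7 positive and 5 negative changes and a median of 0.06. Among them Cited2, an inhibitor of the factor's coactivator binding, was at 266 and 279 CPM in shGFP and 185 and 242 CPM in Ell2-KD, and Epas1, the alpha subunit of HIF-2, had 34 and 13 counts against 5 and 4.

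Of 40 other known targets of the factor 27 were tested, with a median of -0.28 and 0 past the edgeR adjusted threshold. Of these, 7 changes were positive and 20 negative, against 50.1% negative over all genes tested. Hmox1, which degrades haem and is also induced by oxidative stress, had 116 and 76 counts in shGFP and 20 and 1 in Ell2-KD. Its level was 13.8 and 15.1 CPM against 1.42 and 0.293 CPM (log2 change -3.87 ± 0.95 SE, edgeR adjusted p = 0.472, and 0.0188 by DESeq2). Both knockdown libraries were far below both controls, at few counts. By edgeR, Hmox1 passed the threshold without Ell2-KD replicate 1 (adjusted p = 0.0058) or replicate 2 (adjusted p = 0.0463), but not without shGFP replicate 1 (adjusted p = 0.961) or replicate 2 (adjusted p = 0.751). Fam162a, a mitochondrial protein gene, was at 239 and 145 CPM in shGFP and 105 and 102 CPM in Ell2-KD (log2 change -0.89 ± 0.29 SE, edgeR adjusted p = 0.677), and overlaps Wdr5b. At an unadjusted edgeR p under 0.05, 3 of these 27 targets were lower (Hmox1, Fam162a and Insig2) and 0 higher. Of all genes tested, 3.26% were lower at that level and 2.57% higher. Both knockdown libraries lay below both controls for 6 of the 27 (22.2%) and above them for 1 (3.70%). Over all genes tested these shares were 18.5% and 17.4%.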

How the data were processed

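For each of 4 SOLiD RNA-Seq libraries the authors deposited whole-number counts of reads by gene symbol, per the file headers and the labels' protocols. Per the submitters' processing notes, HTSeq 0.5.3, SAMtools 0.1.11 and DESeq 1.4.1 are named, with build mm9; the aligner, annotation and strand setting were not given in the sources used here. Counts were tested with edgeR 4.0.16 in R 4.3.3: filterByExpr (minimum count 10, minimum total 15), TMM scaling, robust quasi-likelihood fit with group as the only term, two-sided, and Benjamini-Hochberg adjustment over all 11027 genes tested (threshold 0.05). SE is the log2 change divided by the square root of F. The same edgeR test was run on simulated counts with the same group sizes. Every gene was drawn with the dispersion of the fitted trend and no effect of replicate number, so rates in the real counts may differ. The test called 6.70% of simulated 2-fold changes, 52.5% of 4-fold changes, 76.6% of 8-fold changes and 0.0352% of unchanged genes. A gene short of the threshold is therefore not shown to be unchanged. Exon lengths, overlaps and copies came from GENCODE M21 (GRCm38, not the files' build), copies with BLAST 2.17.0, and promoters from RefSeq, the first listed start per gene. Length-scaled shares divide counts by exon length. Exons of 10 members overlap those of another gene: Slc2a1, Hk1, Gpi1, Pfkm, Pfkp, Tpi1, Pkm2, Hif1a, Bnip3 and Ankrd37. For Pkm2 and Hif1a an overlapping gene lies on the same strand. Library totals were 3496471 to 13914488, and 10 counts equal 0.708 to 2.91 CPM. Members, lists and rules were chosen with earlier results of these data known. Every member is named, with values in each library for those with an unadjusted p under 0.05, the most abundant, isozyme pairs and oxygen sensors, and for the 2 genes of smallest p in each list of other genes; further values were added after they were seen. Alternatives were DESeq2 1.42.0, other scalings and filters, a replicate block, and leaving out each library.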

Additional observations from a re-analysis of the deposited data

How the results depend on the processing

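No member passed the threshold under any of the 10 alternatives, and both medians stayed negative: -0.33 to -0.13 for glycolysis and -0.37 to -0.09 for hypoxia on leaving out 1 library. The number of genes past the threshold, 5, was 2 with library totals in place of TMM, 22 without a filter, 2 with a filter of 5 CPM, 46 by DESeq2, and 14 to 142 without 1 library, the last being without Ell2-KD replicate 1. With the replicate number as a block it was 28. Same-numbered samples' deviations correlated at 0.31, but 2 pairs do not show a pairing, and the block called no member. Of 298 alternative values of the 30 tested members, 23 changed sign, in 13 members. Pgk1, at 0.01, was -0.0016 with library totals and -0.017 with the replicate block. Leaving out 1 library gave -0.28 to 0.31 for Gapdh, -0.27 to 0.25 for Pgk1, -0.30 to 0.17 for Pgam1, -0.19 to 0.041 for Pkm2, -0.35 to 0.014 for Pfkl, -0.54 to 0.15 for Pfkm, -0.53 to 0.055 for Gpi1, -1.11 to 0.015 for Ldha and -0.091 to 0.59 for Slc16a1. It gave -0.17 to 0.22 for Hif1a, -0.37 to 0.25 for Egln1, -0.13 to 0.57 for Bnip3l, -1.52 to 7.48 for Ankrd37 and, outside the 34, -0.18 to 0.011 for Gm5506. With no change of sign, it gave -0.72 to -0.24 for Hk1, -0.37 to -0.0029 for Hk2, -0.37 to -0.099 for Aldoa, -1.83 to -0.096 for Bpgm, -0.74 to -0.22 for Egln3, -1.03 to -0.037 for P4ha1, -0.44 to -0.16 for P4ha2, -0.44 to -0.052 for Pdk1, 0.017 to 0.66 for Pdk3 and 0.057 to 1.03 for Ddit4. The smallest edgeR adjusted p of a member over all alternatives was 0.0566, for Ldha without Ell2-KD replicate 1. With 1 library left in an arm, that library is assumed to vary like the other group. The causes were not tested. Ell2-KD replicate 2 limits the low genes: 3 counts there equal 0.874 CPM.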
